A study of Mus musculus with 2 samples.

Results

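Cxcl12-abundant reticular (CAR) cells were selected from the droplet libraries of mouse bone marrow by their own transcripts. A barcode was a member when Cxcl12, Lepr, Kitl and Ebf3 together gave at least 3 UMIs (unique molecular identifiers, each standing for a captured RNA molecule) from at least 2 of these 4 genes, and when Cdh5, Emcn, Stab2 and Ptprb, which mark endothelium, together gave fewer than 3 UMIs. Only barcodes with at least 500 UMIs, at most 20% mitochondrial UMIs and less than 70% hemoglobin UMIs were considered. The rule found 253 members among 23438 such barcodes: 167 of 13845 in the WT library and 86 of 9593 in the DKO library.

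The study asked what loss of the helicase Ddx41 does to blood formation. Femoral marrow of 1 mouse per genotype, at 2 months of age, was flushed with PBS and loaded on the Chromium 3' v3 system. By the study's methods the WT mouse was a Ddx41fl/fl control without VavCre and with intact cGas, and the DKO mouse was VavCre:Ddx41fl/fl with both cGas alleles deleted (cGas-/-), so both mice carried the floxed Ddx41 alleles. VavCre is driven in hematopoietic cells, and the study's text names endothelium and oocytes as further sites, whereas the cGas-/- genotype is not limited to a cell type. Loss of cGas in the reticular cells could not be checked from their few Cgas UMIs, given below. Each genotype is a single library, so the genotypes were compared without p-values: every interval below is an exact 95% interval of counting error only, and mouse, library and genotype cannot be told apart.

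CAR cells are mesenchymal cells with long processes that surround the marrow sinusoids. They supply Cxcl12, the chemokine that holds hematopoietic stem cells and B-cell progenitors in the marrow through Cxcr4, and stem cell factor (Kitl), which maintains stem cells through the receptor Kit. They carry the leptin receptor (Lepr), depend on the transcription factors Ebf3 and Foxc1, and include precursors of marrow adipocytes and of bone-forming osteoblasts.

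The members made up 1.21% of the WT barcodes (95% interval 1.03 to 1.40) and 0.897% of the DKO barcodes (0.718 to 1.11). The intervals overlapped. The WT matrix listed 1518290 barcodes, empty droplets included, and the DKO matrix listed 14142 with none under 500 UMIs, so the denominators were not formed in the same way. The depth of the kept barcodes had a median of 4108 UMIs in WT and 5002 in DKO, against 1800 and 1861.5 in the members. 41 kept barcode sequences occurred in both libraries, and 0 of them were members.

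The 4 selecting genes lie far apart in the genome (GRCm38). Cxcl12 spans 12.8 kb of chromosome 6 (117168535 to 117181367), Lepr 97.9 kb of chromosome 4 (101717404 to 101815352), Kitl 84.8 kb of chromosome 10 (100015630 to 100100416) and Ebf3 120.8 kb of chromosome 7 (137193673 to 137314445). Since these genes chose the members, large shares of their UMIs in members follow from the rule. The members held 51.8% of all Cxcl12 UMIs among kept WT barcodes and 69.1% in DKO. For Lepr the shares were 61.4% and 78.5%, for Kitl 61.5% and 62.6%, and for Ebf3 70.4% and 73.0%.

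As values that chose the members, and not as findings, the 4 genes gave these levels. Cxcl12 had 3326 UMIs in WT members and 3119 in DKO members, or 5155 and 6530 CPM (the gene's UMIs per 1000000 UMIs summed over a library's members). A WT member held from 0 to 154 Cxcl12 UMIs with a median of 9, and a DKO member from 0 to 299 with a median of 14.5. Lepr stood at 817 and 1160 CPM, Kitl at 1023 and 1235 CPM, and Ebf3 at 1452 and 1273 CPM. All 4 genes were present together in 70 WT and 43 DKO members, and the other members showed 2 or 3 of them.

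At the edge of the rule, 9 WT and 5 DKO members had exactly 3 selecting UMIs, and a median of 2 and 3 of the 19 reticular identity genes described below. Just outside it, 24 WT and 12 DKO barcodes had 2 UMIs from 2 genes and a median of 2 and 1 identity genes. Far from the threshold, 77 WT and 48 DKO members carried 20 selecting UMIs or more.

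Many members were not reticular cells alone. The deepest member of each library held 85820 UMIs in WT and 111724 in DKO, which was 13.3% and 23.4% of all UMIs of the members. Both were rich in platelet chemokine RNA: Pf4 gave 3698 UMIs in the WT barcode and 3204 in the DKO barcode, beside 77 and 7 selecting UMIs. Ptprc, the pan-leukocyte gene that stromal cells lack, had a UMI in 40 WT and 15 DKO members, and hemoglobin passed 10% of UMIs in 11 and 5. Neutrophil genes (S100a8, S100a9, Elane and 7 others) took 30290 UMIs in WT members and 4636 in DKO members, with 5527 and 1694 of them in a single barcode each. No doublet caller was run, and whether these barcodes were doublets, cell clumps or droplets with free RNA was not tested.

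**Figure D1:**
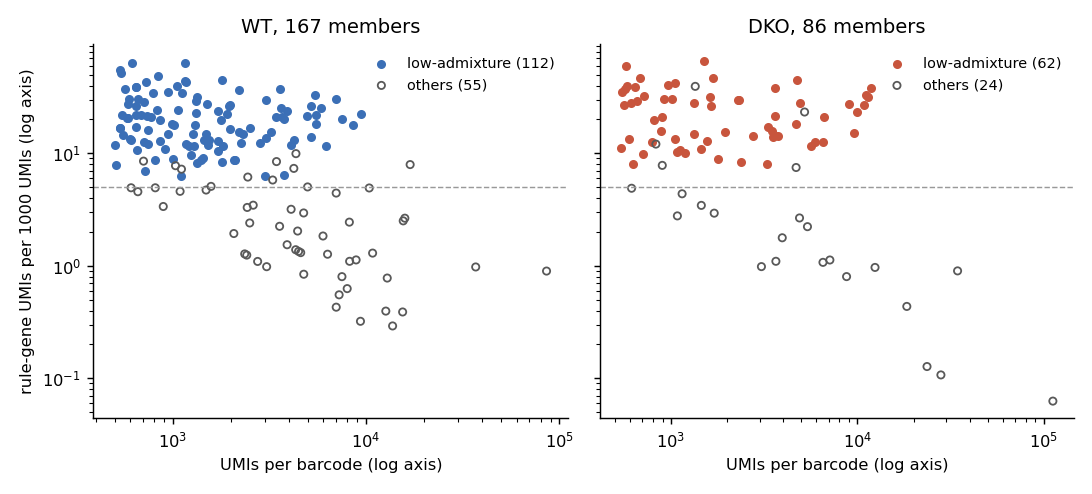
Selecting-gene UMIs per 1000 UMIs against UMIs per barcode for each member, both on log axes, with 1 panel per library and a dashed line at 5 per 1000. Filled points are the 112 WT and 62 DKO low-admixture members, and the open points at the lower right include the deepest barcodes, of 85820 and 111724 UMIs.

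Because of these barcodes the main results are given for all members and for the low-admixture members, a subset defined after the data had been seen. Low-admixture members had at least 5 selecting UMIs per 1000 UMIs, at most 10% hemoglobin, and no more UMIs from 6 lists of blood-cell markers than from the selecting genes. They numbered 112 in WT and 62 in DKO, or 67.1% and 72.1% of the members, with a median of 1290 and 1593.5 UMIs and a deepest barcode of 9390 and 11762. By this choice they had few blood-cell UMIs, with 499 and 134 of neutrophil genes and 49 and 10 of megakaryocyte genes.

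Genes that the rule did not use were those of reticular cells. The reticular identity list held 19 genes reported for CAR cells, and 18 of them reached a mean of 50 CPM in the members. At least 3 of the 19 were detected in 144 of 167 WT members and 80 of 86 DKO members, with medians of 6 and 7 genes. In all other kept barcodes the median was 1. None of the 19 was detected in 3 WT members and 1 DKO member. Snorc was the 1 listed gene at 0 in both libraries.

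The highest identity genes were Igfbp5, which binds insulin-like growth factors, and Ebf1, a transcription factor of both stromal and B-lineage cells. Igfbp5 had 1142 UMIs in WT and 1193 in DKO members, or 1770 and 2498 CPM. It had at least 1 UMI in 119 of the WT members and 73 of the DKO members. When every barcode was thinned to 500 UMIs, the expected share with Igfbp5 was 48.0% in WT and 60.3% in DKO members. In B-lineage barcodes, which should lack the gene and had medians of 2898 and 4009 UMIs, the thinned share was 0.250% and 0.120%.

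Gas6, a ligand of the Axl and Mertk receptors, was at 775 and 1036 CPM in WT and DKO members. Adiponectin (Adipoq), which marks the adipocyte-primed reticular cells, was at 217 and 201 CPM and was found in 45 WT and 29 DKO members. Vcam1, the adhesion molecule for integrin-bearing progenitors, stood at 360 and 664 CPM. The platelet-derived growth factor receptors Pdgfra (80.6 and 113 CPM) and Pdgfrb (138 and 237 CPM), the transcription factors Foxc1 (102 and 96.3 CPM) and Prrx1 (133 and 157 CPM), and the chemokine Cxcl14 (349 and 360 CPM) were present in both libraries. These are levels summed over members, which the blood-cell RNA of mixed barcodes dilutes. In low-admixture members Igfbp5 reached 4105 and 5824 CPM.

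Against the other kept barcodes of the same library, 389 of 3191 genes with 50 CPM in both members' sums were at least 8-fold higher in both libraries, 12.2% of the genes compared. Of the identity list 12 of 17 such genes passed this fold, of the niche ligands 10 of 13 and of the matrix genes 19 of 20. The exceptions in the identity list included Ebf1, high in B-lineage cells (1.29 and 1.54 on the log2 scale in WT and DKO), and Hp, high in neutrophils (1.07 and 0.89). None of the blood-lineage lists had a gene past this fold except the megakaryocyte list, where 6 of 6 passed. Of that list's UMIs in members, 1 barcode held 8378 of 9083 in WT and 1 held 6628 of 6664 in DKO. In low-admixture members the median over these genes of the smaller of the 2 libraries' log2 ratios was -0.92. The other kept barcodes include a few with stromal transcripts that the rule left out.

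**Figure D2:**
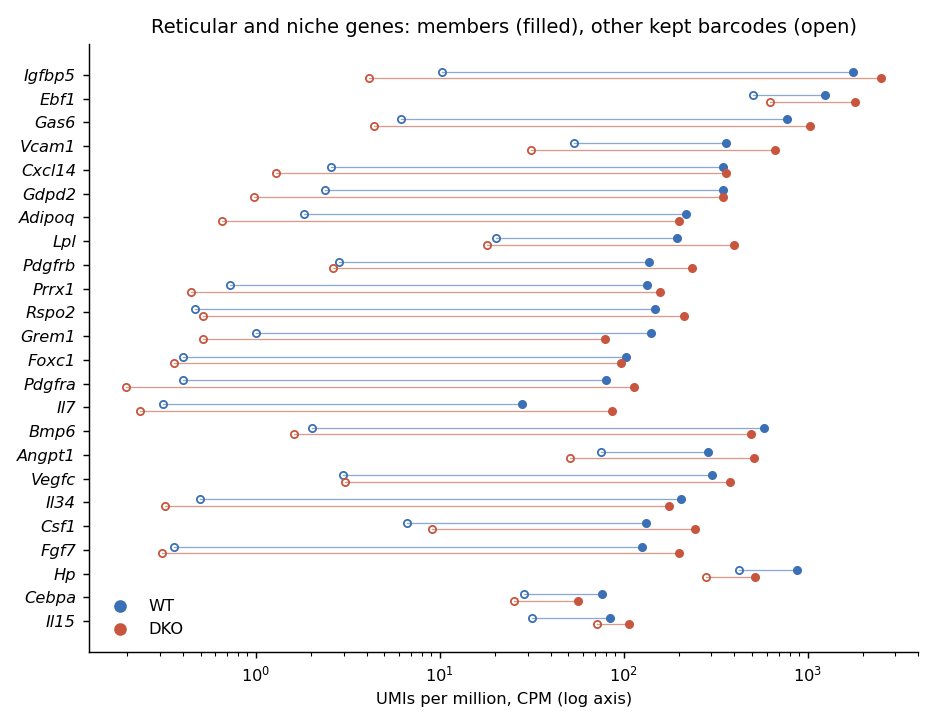
CPM on a log axis of 24 reticular and niche genes in all members (filled) and in all other kept barcodes (open) of the WT and DKO libraries. Igfbp5 lies at 1770 and 2498 CPM in members against 10.3 and 4.11 CPM in the others, while Ebf1, Hp, Cebpa and Il15 lie close to them.

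The 20 genes that stood farthest above the other barcodes, by the smaller of the 2 libraries' ratios, ranged from 8.12 to 9.40 on the log2 scale. Leading them was Tenm2, a cell-surface teneurin, with 89 UMIs in 16 WT members and 76 UMIs in 11 DKO members. Gpc6, a glypican of the cell surface, was far more widespread, with 469 UMIs in 72 WT members and 426 UMIs in 39 DKO members. Several were secreted signals. Il34 binds the receptor of Csf1 on macrophages and had 133 and 84 UMIs. Fgf7, Bmp6 and the Wnt co-activator Rspo2 were also among them, with 81 and 96, 373 and 235, and 96 and 102 UMIs in WT and DKO.

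The same set held proteins that act on growth factors outside the cell. Pappa, a protease that cleaves insulin-like growth factor binding proteins, gave 725 and 951 UMIs in 99 and 52 members, and Bmper, which binds bone morphogenetic proteins, gave 40 and 42. Csmd1 was the most abundant, at 2821 CPM in WT and 3304 CPM in DKO, and it spans 1643 kb of DNA. The remaining genes were Prr16, Sgcd, Ism1, Gm6249, Zfhx4, Abca8a, Gm20619, Adcy2, Ptprd, Snai2 and Dlg5. Of the 20 genes, 14 spanned 100 kb or more, beside 1120 of the 3925 genes measured in low-admixture members. Between the libraries 0 of the 20 differed 2-fold, beside 7.14% higher and 4.39% lower of all genes. The ranking by the smaller ratio, with 50 CPM needed in each library, favors genes that are alike in both.

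Low-admixture members were divided, after the data had been seen, by the share of Cxcl12 in their selecting UMIs. The division uses the genes that chose the members and is a description of them. A share from 40% to 60% was found in 5 of 112 WT and 4 of 62 DKO members. Members with at least 50% of their selecting UMIs from Cxcl12 (Cxcl12-major) numbered 63 in WT and 40 in DKO. Cxcl12-minor members, in which Lepr, Kitl and Ebf3 gave the larger part, numbered 49 and 22, or 43.8% (34.4 to 53.4) and 35.5% (23.7 to 48.7) of the low-admixture members. The intervals overlapped between the libraries.

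The 2 groups of members differed in the make-up of their whole RNA. Ribosomal protein genes took a median of 8.39% of UMIs in WT Cxcl12-major members and 0.985% in WT Cxcl12-minor members, and 5.07% and 0.570% in DKO. Genes that span 100 kb or more took 9.11% in major and 42.6% in minor members of WT, and 10.3% and 45.6% in DKO. Malat1, a long non-coding RNA that stays in the nucleus, took 0.120% in major and 3.52% in minor members of WT, and 0.0840% and 3.58% in DKO. Mitochondrial UMIs were close in both groups, at 5.31% and 3.63% in WT and 4.82% and 5.63% in DKO, and median UMIs were 1168 and 1440 in WT and 1560.5 and 1969 in DKO.

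**Figure D3:**
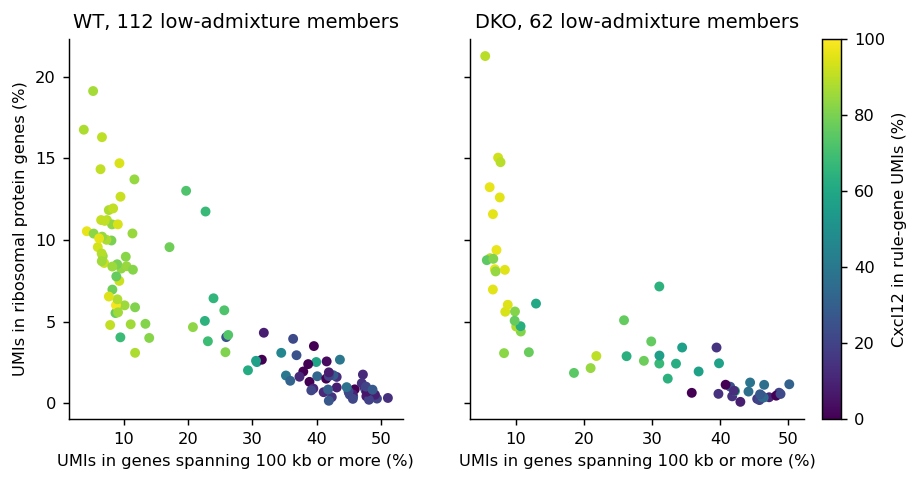
Share of UMIs in ribosomal protein genes against the share in genes spanning 100 kb or more for each low-admixture member (112 WT, 62 DKO), colored by the Cxcl12 percentage of its selecting UMIs. Members with a high Cxcl12 share lie at the upper left (medians of 8.39% ribosomal and 9.11% long-gene UMIs in WT) and those with a low share at the lower right (0.985% and 42.6%).

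Across low-admixture members, the Cxcl12 share followed these measures in both libraries. Spearman's rho with the ribosomal share was 0.80 over 112 WT members and 0.85 over 62 DKO members, and with the long-gene share -0.86 and -0.86. These are descriptions: members of a library share their mouse and preparation, Ebf3, Lepr and Kitl are themselves far longer than Cxcl12, and Ebf3 counts in the long-gene share. Genes spanning under 20 kb had a median log2 ratio of major over minor members of 1.68 in WT and 1.24 in DKO (983 genes), against -1.19 and -0.82 for genes of 100 kb or more (1120 genes). Since the division itself sets a short gene against long ones, these ratios are not independent of it, and whether it separates kinds of cells, or cells from nuclei, was not tested.

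Single genes are given as description only, since the division itself sets a short gene against long ones. Gpx3, Pdzrn4 and Ryr2 were chosen after values were seen. Adipoq had 120 UMIs in the major and 3 in the minor members of WT, and 84 and 2 in DKO. Mgp, the matrix Gla protein, had 1137 and 46 UMIs in WT and 389 and 12 in DKO, and the secreted glutathione peroxidase Gpx3 had 221 and 9, and 161 and 7. In the other direction, Pdzrn4 gave 91 UMIs in major and 343 in minor members of WT, and 96 and 218 in DKO. Ryr2, which encodes a calcium release channel, gave 1 and 19 UMIs in WT and 9 and 22 in DKO. Runx2, the master regulator of osteoblasts, was at 1482 CPM in major and 4225 CPM in minor WT members, and at 1294 and 2297 CPM in DKO.

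The targeted genes gave little in these cells. Ddx41 had 10 UMIs in WT members and 3 in DKO members, or 15.5 and 6.28 CPM, and a log2 ratio of -1.03 (-3.80 to 0.65). Cgas had 5 and 4 UMIs, or 7.75 and 8.37 CPM, a log2 ratio of 0.17 (-2.22 to 2.33). In all other kept barcodes Ddx41 was at 26.5 CPM in WT and 11.3 CPM in DKO, and Cgas at 17.6 and 10.3. UMIs come from the 3' end, so transcripts of a deleted allele can still be counted. Whether Ddx41 was intact in DKO reticular cells was not measurable at this depth.

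Over all members, 270 of 3784 genes with a mean of 50 CPM were at least 2-fold higher in DKO (7.14%) and 166 were at least 2-fold lower (4.39%), and the median log2 ratio was 0.12. In the low-admixture members 202 of 3925 genes were higher (5.15%) and 140 lower (3.57%), with a median of 0.08. In the other kept barcodes, which hold far more UMIs, 8 of 3326 genes were higher and 19 lower.

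Most of the extreme genes over all members were carried by single barcodes. The 10 highest were Ly6g6c, Tsc22d1, Lsm12, Dusp23, Ssx2ip, Igha, Ccdc92, Thbs1, Adarb2 and Kcnq5, at log2 ratios from 2.37 to 4.06. In each of them 1 DKO barcode held between 59.1% and 100% of the UMIs. Thbs1, thrombospondin of platelets and stroma, had 331 UMIs in WT and 1268 in DKO members, 98.0% of the latter in 1 barcode. In the low-admixture members it had 16 and 14.

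The 10 lowest were Ctsg, Elane, Fat3, Prtn3, Mpo, Olfm4, Hist1h2ap, Ms4a3, H2-Eb1 and Lcn2, most of them granule genes of neutrophil precursors. Elane, neutrophil elastase, had 508 UMIs in WT and 4 in DKO members, with 94.9% of the WT UMIs in 1 barcode, and 4 and 4 UMIs in the low-admixture members. Fat3 had 157 UMIs in WT members, 88.5% in 1 barcode, and 0 in DKO, at least 38.7-fold lower against a floor of 3 counts. In 7 of the 10 lowest genes 1 WT barcode held more than 50% of the UMIs, and the smallest such share among the 10 was 16.2%.

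Niche factors differed in both directions. Of the 33 listed ligands in the files, 16 reached a mean of 50 CPM over all members, of which 2 were past 2-fold higher in DKO and 1 lower, beside 7.14% and 4.39% of all genes. Their median log2 ratio was 0.34 beside 0.12 for all genes, and the range ran from -1.69 (Spp1) to 1.58 (Il7). Of the 16, 8 had an interval above 0 and 1 below, beside 864 and 534 of all 3784 genes. In low-admixture members 18 reached a mean of 50 CPM, 1 past 2-fold higher and 2 lower beside 5.15% and 3.57% of all genes. The median of the 18 was 0.14 beside 0.08 for all genes. Kitl was at 2526 CPM in WT and 2901 CPM in DKO low-admixture members, a log2 ratio of 0.20 (0.03 to 0.37), and Cxcl12 at 12584 and 15433 CPM, 0.29 (0.22 to 0.37). Both selected the members and are given as description.

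The ligand past 2-fold higher in both sets was Il7, which B-cell and T-cell progenitors require. It had 14 UMIs in 10 of 112 low-admixture WT members and 39 UMIs in 19 of 62 DKO members. Low-admixture WT and DKO members had medians of 1290 and 1593.5 UMIs, and depth was not equalized for the following shares. The shares of members with a UMI were 8.93% (4.36 to 15.8) in WT and 30.6% (19.6 to 43.7) in DKO, and the log2 ratio of the level was 1.67 (0.82 to 2.73). It was higher in DKO among the Cxcl12-major members (5 and 22 UMIs) and among the minor ones (9 and 17 UMIs). Pdgfa, the other ligand past 2-fold over all members, had 60.9% of its WT and 85.1% of its DKO UMIs in 1 barcode.

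Other ligands with more counts were higher in DKO by less than 2-fold. Csf1, the macrophage growth factor, had 74 and 110 UMIs in low-admixture WT and DKO members, a log2 ratio of 0.82 (0.39 to 1.27). Angpt1, the ligand of the Tie2 receptor, had 107 and 150, 0.74 (0.37 to 1.11), and Bmp4 had 29 and 44, 0.84 (0.15 to 1.59). Bmp6, a regulator of iron balance, had 336 and 216 UMIs, a log2 ratio of -0.38 (-0.64 to -0.13). Vcam1, of the identity list, had 184 and 256, 0.73 (0.45 to 1.01). The interleukin and thrombopoietin genes Il6, Lif and Thpo, and the Notch ligands Dll1 and Dll4, had at most 1 UMI in the members of either library.

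Among bone-forming genes, Spp1, Ibsp and Runx2 were lower in DKO. Of the 8 osteoblast-list genes with a mean of 50 CPM over all members, 0 were past 2-fold higher and 3 lower, beside 7.14% and 4.39% of all genes, and the median log2 ratio was -0.78 beside 0.12 for all genes. In low-admixture members 9 were measured, 0 higher and 1 lower, beside 5.15% and 3.57%, with a median of -0.63 beside 0.08. The median was -0.83 in Cxcl12-major members and -0.11 in Cxcl12-minor members. In the major members 1 of 9 genes was past 2-fold higher and 3 lower, beside 586 and 198 of all 3925 genes. In the minor members 5 of 9 genes were below 0, and the ratios ran from -2.11 to 2.87. There 1 gene was past 2-fold each way, beside 455 higher and 369 lower of 3925. All 8 genes measured over all members had a log2 ratio below 0, 6 of them with an interval below 0, beside 534 of all 3784 genes. In the low-admixture set 7 of 9 were below 0 and 2 above it, with the highest ratio at 0.64. There 5 intervals were below 0 and 1 above, beside 256 and 346 of all 3925 genes. The late osteoblast and osteocyte genes were nearly absent: Bglap had 5 and 1 UMIs in all members.

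Spp1 (osteopontin), a phosphoprotein of bone matrix that also limits stem cell numbers, had 883 UMIs in WT and 202 in DKO members, or 1369 and 423 CPM. In low-admixture members it had 607 UMIs in 66 WT barcodes and 176 in 34 DKO barcodes, at most 12.5% of a library's UMIs in 1 barcode. The log2 ratio was -1.69 (-1.92 to -1.47) over all members and -1.53 (-1.78 to -1.29) in the low-admixture ones. In the other kept barcodes it was -1.24, so the lower value was not limited to the members.

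Ibsp, bone sialoprotein, had 668 UMIs in WT and 362 in DKO low-admixture members, a log2 ratio of -0.63 (-0.82 to -0.44). Runx2 had 581 and 298, -0.71 (-0.91 to -0.50). Within the Cxcl12-major members Runx2 had 195 UMIs in WT and 169 in DKO, -0.20 (-0.50 to 0.11), and within the minor members 386 and 129, -0.87 (-1.18 to -0.59). Spp1 had a log2 ratio of -1.80 in the major members (-2.07 to -1.55) and -0.62 in the minor ones (-1.64 to 0.22). Whether the ratios differ between the 2 groups of members was not tested. Mmp13 and Col1a1 had 55.1% and 51.6% of their WT UMIs in 1 barcode, and in low-admixture members their intervals ran from -1.14 to 0.32 and from -1.89 to -0.13. With every barcode weighted alike, the Col1a1 ratio over all members turned to 0.41.

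Matrix genes went in both directions. Of 34 genes, 23 were measured over all members, 1 past 2-fold higher and 4 lower beside 7.14% and 4.39% of all genes. Their median was -0.04, with 9 intervals below 0 and 4 above, beside 534 and 864 of all 3784 genes. In low-admixture members 29 were measured, 1 higher and 3 lower beside 5.15% and 3.57%. There the median was 0.01, with 7 intervals below 0 and 3 above, beside 256 and 346 of 3925 genes. Igfbp3, which binds insulin-like growth factors, was the higher one in both, with 35 and 62 UMIs in low-admixture members and a log2 ratio of 1.06 (0.46 to 1.72), but 40.3% of the DKO UMIs were in 1 barcode and the ratio without the top barcodes was 0.55. Mgp had 1183 UMIs in 76 WT and 401 UMIs in 39 DKO low-admixture members, -1.30 (-1.47 to -1.14), beside -2.57 in the other kept barcodes. Timp3, an inhibitor of matrix metalloproteinases, had 65 UMIs in 36 WT members and 11 in 9 DKO members, -2.20 (-3.38 to -1.37), beside -0.30 in the others. Col3a1 had 33 and 7 UMIs, with 57.6% of the WT UMIs in 1 barcode, and -0.84 without the top barcodes.

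**Figure D4:**
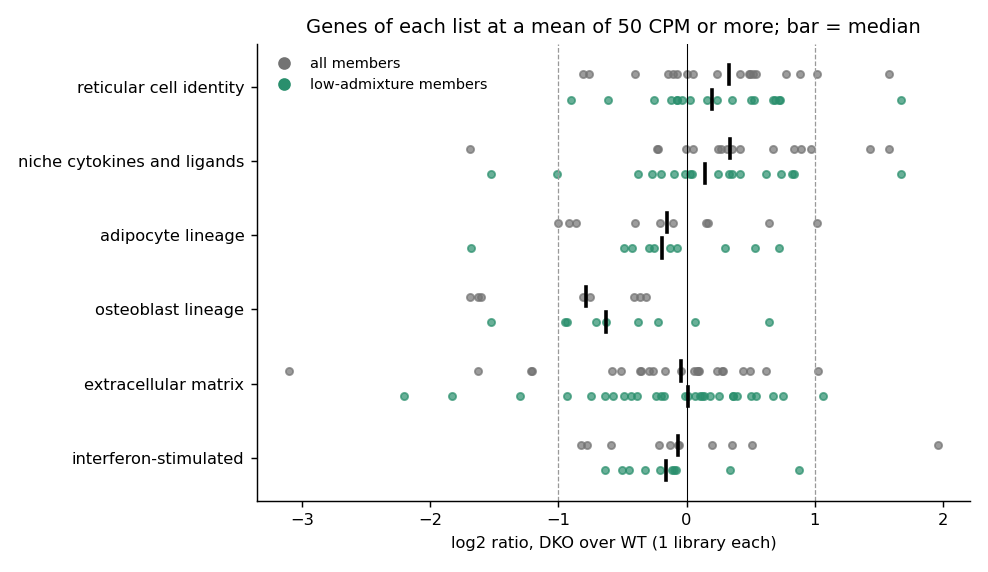
Log2 ratio of DKO over WT for each gene of 6 lists with a mean of 50 CPM or more, over all members (grey) and over low-admixture members (green), with bars at the medians and dashed lines at 2-fold. The osteoblast medians lie at -0.78 and -0.63, and the other 5 lists have medians between -0.19 and 0.34.

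Adipocyte-lineage genes went in both directions. Of 18 listed, 10 were measured, and the median log2 ratio was -0.16 over all members and -0.19 in the low-admixture ones. Lpl, the lipoprotein lipase, had 115 UMIs in WT and 159 in DKO low-admixture members, 0.72 (0.37 to 1.08), and Pparg, the regulator of adipocyte formation, had 74 and 90, a log2 ratio of 0.53. Adipoq had 123 and 86, -0.26 (-0.68 to 0.15), an interval that spans 0. Fabp4, a fatty acid carrier of adipocytes and endothelium, had 198 UMIs in 45 WT members and 51 UMIs in 10 DKO members, -1.68 (-2.18 to -1.25), and 122 UMIs in the 9 WT endothelial barcodes described below. Mature adipocyte genes were near 0, with 2 Plin1 UMIs in all members and none of Cfd.

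Markers of other mesenchymal and neural cells were sparse. Of the pericyte list, Notch3 and Mylk reached 50 CPM, at 121 and 191 and at 212 and 306 CPM, with 57.5% of the DKO Mylk UMIs in 1 barcode. The fibroblast list gave 56 UMIs in WT and 40 in DKO members, the chondrocyte list 8 and 4, and the Schwann cell list 36 and 36, of which 1 barcode of each library held 19 and 27. The endothelial list gave 161 and 165 UMIs, 60 and 17 of them in low-admixture members. Esam and Pecam1, which platelets also carry, gave 69 and 79 and 28 and 63 UMIs over all members.

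Barcodes with endothelial transcripts that missed the stromal threshold were too few for a comparison, with 9 in WT and 3 in DKO. Each of the 9 WT barcodes held at most 2 selecting UMIs. Cxcl12 had 3 UMIs and Ebf3 0 of their 13671 UMIs. Both are selecting genes, so these low counts follow from the missed threshold and are not findings. Of genes that did not choose these barcodes, Igfbp5 had 0 UMIs and Runx2 0, while Vcam1 had 17 and Pecam1 8. One of the 3 DKO barcodes held 97630 UMIs. These values are given side by side only.

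Interferon-stimulated genes are a class that cGas signaling can induce. Of 31 listed genes, 11 reached a mean of 50 CPM over all members, 1 was past 2-fold higher and 0 lower, beside 7.14% and 4.39% of all genes, and the median log2 ratio was -0.06. In low-admixture members 10 were measured and 0 were past 2-fold, beside 5.15% higher and 3.57% lower of all genes. Their median was -0.16, beside 0.08 for all genes. Their medians were -0.40 in Cxcl12-major members and -0.38 in Cxcl12-minor members. In the major members 2 of 10 were past 2-fold higher and 0 lower, beside 586 and 198 of all 3925 genes. There 5 intervals were below 0 and 0 above, beside 258 and 413 of 3925. In the minor members 1 gene was past 2-fold higher and 3 lower, beside 455 and 369 of 3925. In the other kept barcodes, 11 were measured, 0 were past 2-fold higher and 4 lower, beside 8 and 19 of all 3326 genes. The median there was -0.76, beside 0.07 for all genes. Among members, Ifitm3 was at 942 CPM in WT and 605 CPM in DKO low-admixture barcodes, -0.63 (-0.98 to -0.30), and the class I genes B2m, H2-K1 and H2-D1 were at -0.11, -0.08 and -0.32. Rsad2, the gene past 2-fold, had 60.0% of its DKO UMIs in 1 barcode and 2 and 0 UMIs in low-admixture members. The difference between members and other barcodes was not tested.

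Ribosomal protein genes were lower in the DKO members. Of 79 measured over all members, 8 were past 2-fold lower and 0 higher, beside 4.39% and 7.14% of all genes, with a median log2 ratio of -0.72. In low-admixture members 5 of 79 were lower and 0 higher, beside 3.57% and 5.15%, with a median of -0.61. The other kept barcodes had a median of -0.28 and 0 of 81 genes past 2-fold, beside 8 higher and 19 lower of all 3326 genes. The median was -0.79 in Cxcl12-major members and -0.45 in Cxcl12-minor members. In the major members 2 of 79 genes were past 2-fold higher and 17 lower, beside 586 and 198 of all 3925 genes. There 65 of 79 intervals were below 0, beside 258 of 3925. In the minor members 6 genes were past 2-fold higher and 16 lower, beside 455 and 369 of 3925. There 8 intervals were below 0, beside 127 of 3925, and 26 genes were above 0. Short genes as a class were also lower in DKO low-admixture members (median -0.19 below 20 kb against 0.18 at 100 kb or more), and their part in the result was not tested.

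The remaining lists had few measured genes. Over all members, 4 p53 targets had a median log2 ratio of -0.07, 8 immediate early and stress genes 0.14, and 4 nucleic acid sensing genes 0.04, with 1, 1 and 0 genes past 2-fold higher and 0 lower, beside 7.14% and 4.39% of all genes. In low-admixture members the 1 measured p53 target was past 2-fold lower (-1.10), with an interval that spans 0. Of 6 immediate early genes there, 1 was higher and 2 were lower (median 0.03), and 5 sensing genes had a median of -0.26. Beside these, 5.15% of all genes were higher and 3.57% lower. Of the lists of blood cells, 9 of 10 neutrophil genes were past 2-fold lower (median -2.26), as were 4 of 5 B-cell, 3 of 6 pan-leukocyte and 1 of 2 T or NK cell genes, whereas 9 erythroid genes had a median of 0.55, 4 macrophage genes 0.49 and 6 megakaryocyte genes 0.21. In low-admixture members, which were chosen for low counts of blood-cell genes, 5 of 5 neutrophil genes were lower (median -1.72), and the median of 5 erythroid genes was -0.47. Their part in the other results over all members was not tested.

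Ranked by the bound of the interval nearest 0, the 10 highest genes in DKO low-admixture members were Adarb2, Gm26535, Kcnq5, Grm7, Kcnq3, Efemp1, Commd10, Chsy3, Rgs7bp and Eda. Of these 8 spanned 100 kb or more, beside 1120 of the 3925 genes measured there. Grm7, a glutamate receptor gene, had 59 UMIs in 15 WT members and 219 UMIs in 21 DKO members, a log2 ratio of 2.13 (1.73 to 2.59), against -0.68 in the other kept barcodes. Efemp1, a fibulin of the extracellular matrix, had 10 UMIs in 9 WT members and 44 UMIs in 21 DKO members, 2.29 (1.38 to 3.55). Eda, the ectodysplasin ligand, had 131 and 269 UMIs in 43 and 33 members, 1.29 (0.99 to 1.61). Gm26535, an unnamed transcript, had 14 and 72 UMIs in 10 and 21 members.

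Some of these rested on 1 barcode or were also higher elsewhere. Kcnq5 had all of its 18 DKO UMIs in 1 barcode and Adarb2 had 68.8% of its 48. Commd10 had a log2 ratio of 2.22 in low-admixture members and 1.33 in the other kept barcodes. Without the barcode with the most UMIs of the gene in each library, the ratios of Grm7, Efemp1 and Eda were 2.30, 2.17 and 1.18.

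Among the 10 lowest were Ctla2a, Timp3, Spp1, Fabp4, S100a8, S100a9, Tafa1, Mgp and Errfi1. Of the 10, 8 spanned less than 20 kb, beside 983 of the 3925 genes measured. Errfi1, a feedback inhibitor of the EGF receptor, had 212 UMIs in 51 WT members and 61 UMIs in 29 DKO members, -1.53 (-1.98 to -1.13), against -0.45 in the others. S100a8 and S100a9 are neutrophil genes at 23370 and 33096 CPM in the other WT barcodes, and 41.2% and 32.8% of their WT UMIs in low-admixture members were in 1 barcode. Ctla2a, over all members, was higher in DKO (651 and 1235 UMIs, 93.5% and 99.0% of them in 1 barcode) and had 23 and 1 UMIs in low-admixture members.

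**Figure D5:**
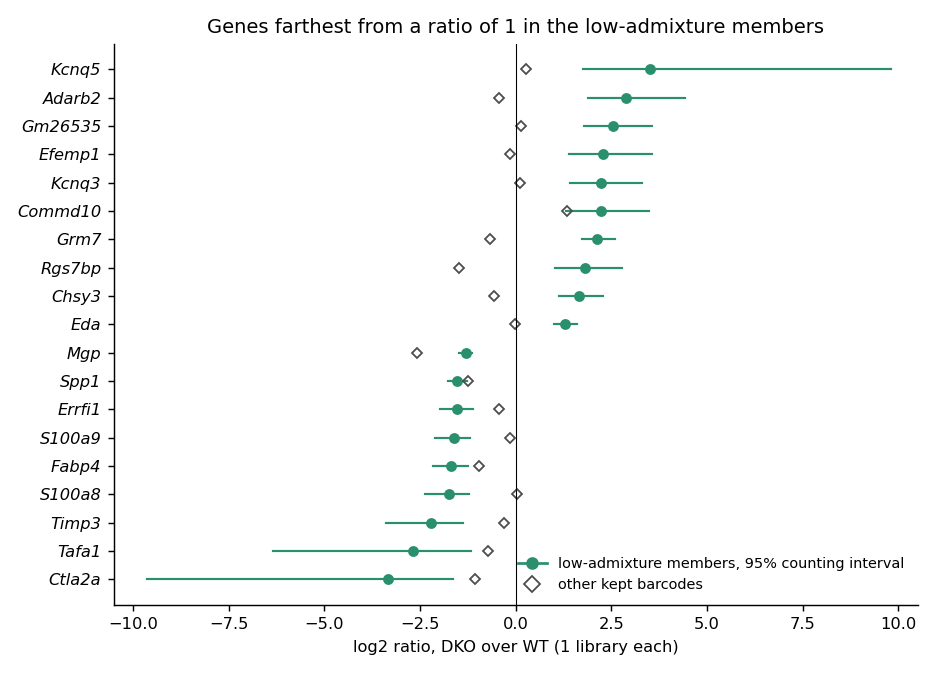
Log2 ratio of DKO over WT for the 10 highest genes and 9 of the 10 lowest genes of the low-admixture members (points, lines for the 95% counting interval) and for the same genes in all other kept barcodes (open diamonds). Commd10 lies on the same side in both, at 2.22 and 1.33, while Grm7 lies at 2.13 and -0.68.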

How the data were processed

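Bone marrow of 1 WT and 1 DKO mouse was profiled by droplet single-cell RNA sequencing. The authors used Cell Ranger to align reads and count UMIs per gene, on mm10 by the submitters' notes, and the matrix header gives release 7.1.0. The deposited values are raw UMI counts of 32285 genes per barcode, with all barcodes for WT and none under 500 UMIs for DKO, 135693452 and 117725934 UMIs in all. Gene spans came from GENCODE M21 (GRCm38), which held 32235 of the gene IDs.

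Barcodes were selected as stated in the report. UMI counts were summed over members per library, scaled to CPM, and compared as log2 ratios with 1 count added, with exact conditional binomial intervals. Levels carry Poisson 95% intervals in the tables, and shares carry Clopper-Pearson ones. Floors use 3 counts, summed over a library's members. Groups came from the labels. Shares thinned to 500 UMIs are exact hypergeometric expectations. With 1 library per genotype no p-values were computed, and the ratio function was tested on simulated data. No doublet caller was run.

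The members, the 24 gene lists and the rules were chosen with earlier results of these data known. Named genes were the selecting genes, Ddx41 and Cgas, list members with a mean of 50 CPM or that define another cell type, the 20 genes farthest above the other barcodes in both libraries (at least 50 CPM in each), and the 10 highest and 10 lowest DKO over WT ratios by the interval bound nearest 0. The same ranking in low-admixture members, the division by Cxcl12 share, and Gpx3, Pdzrn4 and Ryr2 were chosen after values were seen. Some genes that these rules name are not reported here. In all, 13 alternatives were planned and 2 added. Computations ran in pandas 2.3.3 and scipy 1.17.1 under Python 3.11.15.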

Additional observations from a re-analysis of the deposited data

Results flagged for a closer look

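Outside the members, 17 WT and 8 DKO kept barcodes had the selecting stromal genes together with at least 3 endothelial UMIs. They held 1835 and 906 Cxcl12 UMIs, at 8132 CPM in WT, above the members' 5155, and at 5519 CPM in DKO, below the members' 6530. They had medians of 10 and 13 identity genes and of 10110 and 10427.5 UMIs, and carried the endothelial receptor gene Kdr at 434 and 548 CPM. A further 18 WT and 5 DKO barcodes had the selecting genes and 70% or more hemoglobin UMIs, with 147 and 23 Cxcl12 UMIs and medians of 3.5 and 2 identity genes. Whether these barcodes were doublets was not tested.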

How the results depend on the processing

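The share of members in WT was 0.978% with at least 1000 UMIs. In WT and DKO the shares were 0.773% and 0.594% with at least 6 selecting UMIs from 3 genes, 0.802% and 0.584% without Cxcl12 in the rule, 0.874% and 0.698% with no Ptprc UMI and at most 10% hemoglobin, and 0.809% and 0.646% for low-admixture members. They were lower in DKO in each of these 4 pairs, which share barcodes and rest on denominators that were not formed in the same way. Genes past 2-fold higher and lower in DKO numbered 623 and 521 with 6 UMIs from 3 genes, 604 and 517 without Cxcl12 in the rule, 602 and 303 with barcodes thinned to 2000 UMIs (78 WT and 42 DKO kept), 515 and 406 from a mean of 20 CPM, and 127 and 81 from 100 CPM. Without the endothelial exclusion 176 were higher, and without Ptprc and hemoglobin 252 were lower. Median-of-ratios scaling shifted ratios by 0.10. Genes 8-fold over other barcodes numbered 585 without Ptprc and hemoglobin and 672 for low-admixture members.

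Some log2 ratios of single genes changed sign. With 6 UMIs from 3 genes they were Ccdc92 -1.81, Ctla2a -7.31, Dusp23 -2.01, Lsm12 -1.44, Ly6g6c -1.59, Pdgfa -0.59, Ssx2ip -0.0070 and Thbs1 -2.78. Without Cxcl12 in the rule they were Ccdc92 -1.84, Ctla2a -7.34, Dusp23 -2.04, Lsm12 -1.36, Ly6g6c -1.62, Mmp13 0.27, Pdgfa -0.50, Ssx2ip -0.037 and Thbs1 -2.80. Without Ptprc and hemoglobin they were Kcnq5 -0.74, Ms4a3 0.26, Olfm4 0.26 and Rsad2 -1.33. In low-admixture members they were Ccdc92 -0.75, Ctla2a -3.33, Dusp23 -0.33, Elane 0.25, Igha -1.33, Lsm12 -0.52, Ms4a3 0.25, Olfm4 0.25 and Rsad2 -1.33. Without the deepest barcodes, chosen after seeing the data, they were Ccdc92 -0.39, Ctla2a -1.11, Dusp23 -0.12, Lsm12 -0.71, Ly6g6c -0.39 and Thbs1 -1.39. With barcodes weighted alike they were Col1a1 0.41, Ctla2a -0.14 and Lsm12 -0.087. The cause was not tested.

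No paired analysis was possible because each genotype had 1 library. Counting intervals leave out the variation between mice, and intervals widen at low counts.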
